A study of Mus musculus with 12 samples.

Results

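The genes described here are 10 members of the IL-1 cytokine family and of the inflammasome, the protein complex that releases IL-1 cytokines. They are *Il1a*, *Il1b*, *Il1rn*, *Il18* and *Il33*, which encode secreted or released ligands and an antagonist, and *Nlrp3*, *Nlrp6*, *Pycard*, *Casp1* and *Gsdmd*, which encode inflammasome proteins. They were chosen by name and not by a cutoff on a measured value, but with earlier results of these data known. All 10 were found among the 15687 genes with values. In the RNA of *Filip1l*-knockdown tumors, *Il1a*, its antagonist *Il1rn*, the sensor *Nlrp6* and the protease *Casp1* were more than 2-fold higher than in CTL tumors. The change of *Il1rn* lay close to the 2-fold limit. *Nlrp3* did not pass the test, and *Il18* was lower, a result that depended on single tumors.

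IL-1α and IL-1β bind the same receptor, IL1R1, and IL-1 receptor antagonist, the product of *Il1rn*, occupies that receptor without signaling. IL-1β and IL-18 are made as inactive precursors that caspase-1 cleaves, and caspase-1 is itself activated on inflammasomes, in which a sensor such as NLRP3 recruits the adaptor ASC (the product of *Pycard*). Caspase-1 also cleaves gasdermin D, whose fragment forms membrane pores through which the mature cytokines leave the cell; IL-1α and IL-33 instead are known as alarmins released from damaged cells. Messenger RNA, which was measured here, gives no information on cleavage or release.

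The study asked what loss of FILIP1L does to lung tumors, and the samples used here compare tumors of mTC11 cells, a mouse lung cancer line, with and without knockdown of *Filip1l*. CTL tumors grew from cells carrying a control shRNA (shControl) and *Filip1l*-knockdown tumors from cells carrying a *Filip1l* shRNA, both delivered by lentivirus. Cells in Matrigel were injected under the skin of 8-week-old male C57BL6/J mice, a host with an intact immune system, and each group gave 6 tumors that were removed on day 24 and frozen. The paper describes the knockdown cells as mixed clones, chosen by immunoblot after selection with puromycin, and does not say which of its *Filip1l* shRNA sequences the sequenced tumors carried. The labels call the tumors of a group biological replicates. Effects of the knockdown cannot be told apart here from other differences between the control and knockdown cell populations.

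Values are normalized counts, reads per gene divided by the size factor of each tumor. The tumors had between 17834745 and 32419578 reads on the listed genes, with the fewest in CTL replicate 5. *Filip1l* itself ranged from 1983 to 2542 normalized counts in CTL tumors (median 2354) and from 1670 to 2184 in *Filip1l*-knockdown tumors (median 1935), so the groups overlapped, although 5 of 6 knockdown tumors lay below every CTL tumor. The log2 fold change of *Filip1l* was -0.26 ± 0.073 (SE; limma adjusted p = 0.00998). Knockdown replicate 1 stood apart, at a mean distance of 93.9 from the other knockdown tumors against 75.5 among those. Its summed macrophage and monocyte markers were 73485 normalized counts against a group median of 36063. *Lyz2* alone gave 40990 of the 73485, and 11 of the 14 markers were highest in that tumor. Of 8 markers of the labeled lung epithelium, *Sftpa1* and *Scgb1a1* were not listed; in CTL tumors *Nkx2-1* was at 17.2 ± 14.3 (SD, n = 6) normalized counts and *Sftpc* at 9.76 ± 21.2, but *Sftpd* was at 1737 ± 712 and *Abca3* at 2999 ± 244. By adjusted p, 3 of the 6 listed were higher in knockdown tumors and 0 lower, *Sftpb* being called. *Sftpb* was uneven, at 29.7 ± 33.0 in CTL and 304 ± 345 in knockdown tumors (SD, n = 6), and the groups overlapped. Its limma adjusted p was 0.0463 and its exact permutation p 0.0606. The general epithelial marker *Cdh1* was at 28492 ± 2707 (SD, n = 6) in CTL tumors. Genes on chromosome 19 had a median log2 fold change of -0.35, which touches *Il33*; the medians of the chromosomes of the other 9 genes lay between -0.040 and 0.036.

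A gene is called changed here when limma, fitted to log2(normalized count + 1) of all genes, gave an adjusted p under 0.05 and a log2 fold change beyond 1 in either direction; it passed the test when the adjusted p alone was met. Of the 10 genes, 4 were called higher in *Filip1l*-knockdown tumors and 0 lower. Over all 15687 genes, 10.2% were called, 6.2% as higher and 3.97% as lower. By adjusted p alone 6 of the 10 were higher and 1 was lower, against 21.1% and 20.7% of all genes. In 5 of the 10 (*Il1a*, *Il1rn*, *Nlrp6*, *Casp1* and *Gsdmd*) every knockdown tumor exceeded every CTL tumor, and 21.5% of all genes had groups that did not overlap in either direction. The median log2 fold change was 0.64 over the 10 genes and 0.0078 over all genes. The 4 calls were the same with edgeR and with DESeq2 on whole reads recovered from the values, which called 10.4% and 10.5% of all genes. The genes had been drawn up with earlier results of these data known, so these shares describe the set and do not test it.

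**Figure D1:**
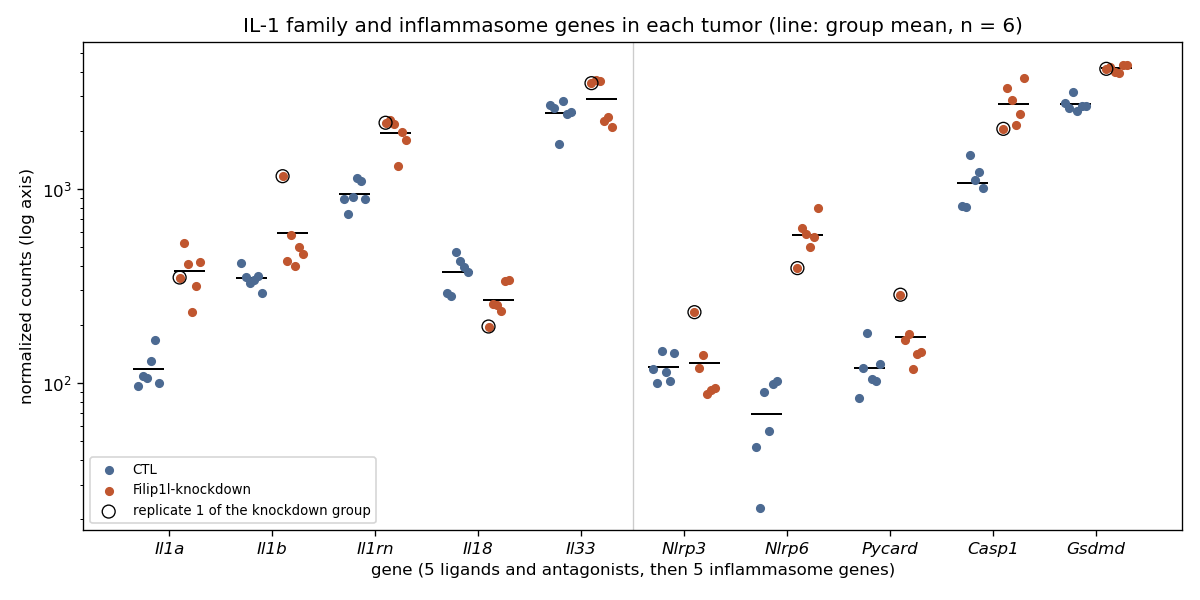
Normalized counts of the 10 genes (log axis) in the 6 CTL tumors and the 6 *Filip1l*-knockdown tumors, 1 point a tumor, with group means as lines and knockdown replicate 1 circled. *Nlrp6* has the widest gap, with CTL tumors between 22.7 and 102 and knockdown tumors between 391 and 797, and knockdown replicate 1 is the highest knockdown tumor for *Il1b*, *Nlrp3* and *Pycard* and the lowest for *Nlrp6*, *Casp1* and *Il18*.

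To show the sequence next to the genes that changed most, the 250 bases before the annotated start are given for the 4 called genes and for *Il1b*, the second IL-1 receptor agonist, 5′ to 3′ along the gene. Sequences and starts are from RefSeq on GRCm38.p6, which lists starts for 9 of the 10 genes (13 starts in all). Capitals mark a TATA box (TATAAA), an AP-1 motif (TGANTCA) or the 10-letter NF-κB consensus, searched on both strands, with no overlap between marked motifs.
*Il1a* (chr2:129309973-129310222, - strand): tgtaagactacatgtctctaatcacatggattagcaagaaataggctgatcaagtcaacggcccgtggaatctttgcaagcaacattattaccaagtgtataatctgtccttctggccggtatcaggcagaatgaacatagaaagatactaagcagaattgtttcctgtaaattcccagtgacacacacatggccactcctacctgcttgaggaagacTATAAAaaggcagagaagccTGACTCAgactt
*Il1b* (chr2:129371140-129371389, - strand): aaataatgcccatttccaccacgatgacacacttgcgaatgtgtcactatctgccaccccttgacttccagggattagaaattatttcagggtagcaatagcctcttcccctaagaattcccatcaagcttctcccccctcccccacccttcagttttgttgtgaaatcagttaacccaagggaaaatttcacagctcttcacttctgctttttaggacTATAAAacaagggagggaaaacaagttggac
*Il1rn* (chr2:24336610-24336859, + strand): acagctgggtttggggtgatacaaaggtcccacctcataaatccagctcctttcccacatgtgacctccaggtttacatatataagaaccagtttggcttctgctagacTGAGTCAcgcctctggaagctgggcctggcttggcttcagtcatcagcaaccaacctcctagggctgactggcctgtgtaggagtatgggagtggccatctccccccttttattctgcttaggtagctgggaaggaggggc
*Nlrp6* (chr7:140920652-140920901, + strand): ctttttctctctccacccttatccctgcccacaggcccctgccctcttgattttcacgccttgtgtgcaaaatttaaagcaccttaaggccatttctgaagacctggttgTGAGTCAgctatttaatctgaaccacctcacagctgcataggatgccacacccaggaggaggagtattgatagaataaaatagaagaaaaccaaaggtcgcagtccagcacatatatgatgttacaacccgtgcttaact
*Casp1* (chr9:5298267-5298516, + strand): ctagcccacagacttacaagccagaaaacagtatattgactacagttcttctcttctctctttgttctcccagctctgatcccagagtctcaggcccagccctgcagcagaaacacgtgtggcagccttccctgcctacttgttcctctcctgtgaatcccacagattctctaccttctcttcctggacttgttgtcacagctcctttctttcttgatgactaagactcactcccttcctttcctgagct
A TATA box was present in 5 of the 13 windows, and 12.4% of all 32851 promoter windows of this length held one. In the windows of *Il1a* and *Il1b* it began 32 and 31 bases before the start, on the strand of the gene. The second listed start of *Il33* had one 29 bases before it, also on the strand of the gene. The others began 203 bases before the first start of *Il33* and, on the opposite strand, 175 bases before that of *Il18*. An AP-1 motif was present in the windows of *Il1a*, *Il1rn* and *Nlrp6*, beginning 12, 141 and 140 bases before the start, and in no other window of the 13; over all promoters 6.75% held one. The window shown for *Il1rn* is that of the first of 3 listed starts. The NF-κB consensus was found in 1 window, at the first start of *Nlrp3*, and 7.25% of all windows held it. A PU.1 motif (GAGGAA, not capitalized) was in 4 of the 13 windows, among them those of *Il1a*, *Casp1* and *Pycard*, and in 23.3% of all. A match describes the letters of these windows only, and no match says only that the letters are absent there.

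*Il1a* (ENSMUSG00000027399; GRCm38 chromosome 2, 129299610 to 129309972, - strand), the gene of IL-1α, had 97.0, 107 and 167 normalized counts in the lowest, median and highest CTL tumor. The corresponding *Filip1l*-knockdown values were 231, 382 and 530. All 6 knockdown tumors lay above all 6 CTL tumors, and no single tumor stood far from its group. The mean rose from 118 ± 26.6 to 376.5 ± 102 (SD, n = 6), a log2 fold change of 1.64 ± 0.19 (SE; limma adjusted p = 1.06e-05). The exact permutation p was 0.00216, the smallest that 6 against 6 tumors can give. Leaving out each tumor in turn moved the log2 fold change between 1.54 and 1.77.

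*Il1b* (ENSMUSG00000027398; chromosome 2, 129364570 to 129371139, - strand), the gene of IL-1β, rose less and less evenly. The CTL tumors held 292, 346 and 415 normalized counts (lowest, median, highest), and the knockdown tumors 403, 482 and 1165. The highest value was that of knockdown replicate 1, 2.52 times the median of the other 5 knockdown tumors, and the lowest knockdown tumor lay within the CTL range. The log2 fold change was 0.67 ± 0.21 (SE; limma adjusted p = 0.0199; exact permutation p = 0.00433). It was 0.45 with that tumor left out (adjusted p = 0.00434), and 0.46 after removing trends in length and GC content (adjusted p = 0.0949). The coefficient of variation of *Il1b* was 11.6% in CTL tumors and 48.9% in knockdown tumors. *Il1b* did not track *Il1a* among tumors, since after group means were removed the r of the pair over the 12 tumors was 0.022. Genes opposite in strand overlap exons of *Il1a* (*Gm14023*) and *Il1b* (*Il1bos*), and reads from the partners cannot be told apart if strand was not used in counting, which is not stated.

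*Il1rn* (ENSMUSG00000026981; chromosome 2, 24336853 to 24351494, + strand), the gene of the receptor antagonist, ranged from 741 to 1135 normalized counts in CTL tumors with a median of 897. In knockdown tumors it ranged from 1307 to 2264 with a median of 2065, and the groups did not overlap. The mean rose from 944 ± 149 to 1947 ± 360 (SD, n = 6), a log2 fold change of 1.04 ± 0.14 (SE; limma adjusted p = 3.5e-05; exact permutation p = 0.00216). This lies close to the 2-fold limit: the value fell below 1, with the test still passed, without CTL replicate 2 (0.97) or knockdown replicate 1, 2 or 3 (0.987 to 0.999), when all tumors were scaled to the same total (0.99) and with GC content and length trends removed (0.95).

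Levels of different genes were compared per kilobase of exon. On that scale the ratio of *Il1rn* to the sum of *Il1a* and *Il1b* was 0.708 ± 0.108 in CTL tumors and 0.727 ± 0.122 in knockdown tumors (SD, n = 6). The size of this ratio depends on the exon lengths used, 5535 bases for *Il1rn*, 1974 for *Il1a* and 1907 for *Il1b*. These are unions over all annotated transcripts. The groups overlapped almost entirely; the log2 difference was 0.034 ± 0.14 (SE; exact permutation p = 0.836), and it changed sign without CTL replicate 1 or 2 or knockdown replicate 2 or 5. The balance of the agonists did shift, with *Il1a* over *Il1b* at 0.332 ± 0.0762 in CTL and 0.702 ± 0.309 in knockdown tumors, a log2 difference of 0.98 ± 0.31 (SE; exact permutation p = 0.0152, 0.0202 after adjustment over the 4 ratios computed). Knockdown replicate 1, at 0.290, was the knockdown tumor inside the CTL range of 0.226 to 0.455, and without it the log2 difference was 1.21.

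*Il18* (ENSMUSG00000039217; chromosome 9, 50554827 to 50581840, + strand), the gene of the caspase-1 substrate IL-18, was the 1 gene of the 10 that fell. Its values were 280, 384 and 473 normalized counts in the lowest, median and highest CTL tumor, and 196, 254 and 340 in knockdown tumors. The ranges overlapped, with CTL replicates 1 and 2 among the knockdown values. It changed by -0.47 ± 0.16 on the log2 scale (SE; limma adjusted p = 0.0291; exact permutation p = 0.0281). The result depended on single tumors: leaving out 1 tumor at a time gave log2 fold changes from -0.55 to -0.38 and adjusted p from 0.0153 to 0.0637, and the test was not passed without CTL replicate 3, 4, 5 or 6 or knockdown replicate 1, 2, 3 or 4. *Il18bp*, the gene of the decoy that neutralizes IL-18, had 480 ± 78.9 and 657 ± 174 normalized counts (SD, n = 6; log2 fold change 0.42, limma adjusted p = 0.0670). Per kilobase, *Il18bp* over *Il18* was 0.444 ± 0.0521 in CTL tumors and 0.867 ± 0.300 in knockdown tumors (exact permutation p = 0.00866, 0.0173 after adjustment over the 4 ratios).

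*Il33* (ENSMUSG00000024810; chromosome 19, 29925114 to 29960718, + strand), the gene of the nuclear alarmin IL-33, did not pass the test. CTL tumors held 1715, 2556 and 2854 normalized counts (lowest, median, highest) and knockdown tumors 2096, 2929 and 3638. Knockdown replicates 1, 2 and 3 lay at 3514 or more, above every CTL tumor, while replicates 4, 5 and 6 lay at 2344 or less. Its log2 fold change was 0.21 ± 0.16 (SE; limma adjusted p = 0.333; exact permutation p = 0.297). It was 0.11 without CTL replicate 3, the lowest CTL tumor, and 0.14 without knockdown replicate 2 or 3. The 21 genes within 1 Mb of *Il33* had a median log2 fold change of -0.36, like chromosome 19 as a whole, and relative to the chromosome's median *Il33* was higher by 0.57 (adjusted p = 0.0120). Whether the chromosome shift bears on *Il33* was not tested.

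**Figure D2:**
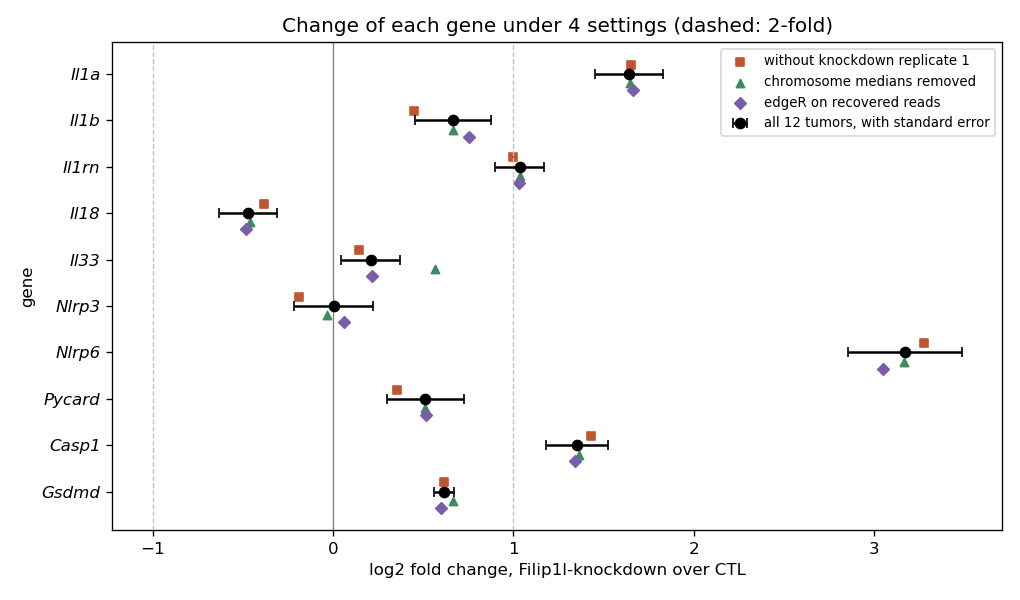
Log2 fold change of each of the 10 genes, *Filip1l*-knockdown over CTL, with all 12 tumors (black, bars are standard errors), without knockdown replicate 1 (squares), with chromosome medians removed (triangles) and from edgeR on recovered reads (diamonds). The 4 settings lie close together for *Il1a*, *Nlrp6*, *Casp1* and *Gsdmd*, and *Il33* moves from 0.21 to 0.57 with chromosome medians removed.

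Among inflammasome sensors, *Nlrp6* (ENSMUSG00000038745; chromosome 7, 140920902 to 140929192, + strand) had the largest change of the 10 genes; NLRP6 is a sensor best known from intestinal epithelium. Its CTL values were 22.7, 73.6 and 102 normalized counts (lowest, median, highest) and its knockdown values 391, 575 and 797. The lowest knockdown tumor, replicate 1, was still well above the highest CTL tumor. The mean rose 8.3-fold, from 69.6 ± 32.3 to 578 ± 135 (SD, n = 6), and the log2 fold change was 3.17 ± 0.32 (SE; limma adjusted p = 3.26e-06; exact permutation p = 0.00216). The 59 listed genes within 1 Mb had a median log2 fold change of -0.011. Of these, 8 were called higher and 1 lower, against 6.2% and 3.97% of all genes. Markers of intestinal epithelium were also higher in knockdown tumors: 6 of the 8 listed were called higher, against 6.2% of all genes. *Hnf4a* (log2 fold change 0.14, limma adjusted p = 0.152) and *Fabp1* (1.35, adjusted p = 0.450) did not pass. The summed level of the 8 was 20276 to 25157 normalized counts in CTL and 51922 to 104670 in knockdown tumors. Much of the knockdown sum was *Lgals4* (9402 ± 2111 and 44131 ± 14103, SD, n = 6) and *Cdh17* (4466 ± 1509 and 23868 ± 3528). Relations within a group were not computed for these markers. The part of intestinal epithelial cells in the *Nlrp6* result was not tested. In bulk tumor RNA, more cells of a type and more RNA per cell cannot be told apart.

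*Nlrp3* (ENSMUSG00000032691; chromosome 11, 59541568 to 59566956, + strand), the sensor best known from macrophages, had 100.4, 116 and 146 normalized counts in CTL tumors (lowest, median, highest) and 88.1, 107 and 232 in knockdown tumors. The group ranges overlapped, and 3 of the knockdown tumors lay below every CTL tumor whereas replicate 1 lay far above. On the log2 scale the change was 0.0030 ± 0.22 (SE; limma adjusted p = 0.993; exact permutation p = 0.996), and -0.19 without knockdown replicate 1 (adjusted p = 0.366). Per kilobase, *Nlrp6* over *Nlrp3* went from 0.454 ± 0.204 to 4.18 ± 1.78 (SD, n = 6), with no overlap between groups (exact permutation p = 0.00216, 0.00866 after adjustment over the 4 ratios).

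*Pycard* (ENSMUSG00000030793; chromosome 7, 127989708 to 127993867, - strand), the adaptor between sensor and caspase, had 84.0, 112 and 181 normalized counts in CTL and 118, 156 and 285 in knockdown tumors (lowest, median, highest). The ranges overlapped, and the highest value was again that of knockdown replicate 1, 1.97 times the median of the other knockdown tumors. The log2 fold change was 0.51 ± 0.21 (SE; limma adjusted p = 0.0690; exact permutation p = 0.0498). It was 0.64 without CTL replicate 3 (adjusted p = 0.0216), 0.61 without knockdown replicate 4 (adjusted p = 0.0373) and 0.35 without knockdown replicate 1 (adjusted p = 0.129). *Gm45205*, on the opposite strand, shares exon positions with *Pycard*.

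*Casp1* (ENSMUSG00000025888; chromosome 9, 5298517 to 5307265, + strand), the protease of the inflammasome, had 811, 1062 and 1502 normalized counts in the lowest, median and highest CTL tumor. In knockdown tumors it had 2043, 2655 and 3728, with no overlap. The mean rose from 1079 ± 262 to 2758 ± 671 (SD, n = 6), a log2 fold change of 1.35 ± 0.17 (SE; limma adjusted p = 2.8e-05; exact permutation p = 0.00216). The coefficient of variation was 24.3% in each group.

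*Gsdmd* (ENSMUSG00000022575; chromosome 15, 75862327 to 75867408, + strand), the pore-forming substrate of caspase-1, changed by less than 2-fold but was the most even of the 10. CTL tumors held 2531, 2669 and 3155 normalized counts (lowest, median, highest) and knockdown tumors 3941, 4205 and 4381, so the groups were clearly apart. The log2 fold change was 0.61 ± 0.056 (SE; limma adjusted p = 1.68e-06; exact permutation p = 0.00216), with coefficients of variation of 8.02% and 4.23%. After removing trends in length and GC content the change was 0.41, and the test was still passed.

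Per kilobase of exon, the order of the levels in CTL tumors was *Gsdmd* (1152 ± 92.4 normalized counts per kilobase; SD, n = 6), *Il33* (857), *Casp1* (721), *Il18* (362), *Il1b* (182), *Il1rn* (171), *Il1a* (59.9), *Pycard* (31.5), *Nlrp3* (29.8) and *Nlrp6* (13.7). Neighbors whose ranges overlapped, and which are thus not ordered beyond their spread, were *Il33* and *Casp1*, *Il1b* and *Il1rn*, and *Pycard* and *Nlrp3*. In knockdown tumors *Casp1* (1842 ± 448 normalized counts per kilobase; SD, n = 6) stood beside *Gsdmd* (1760), with overlapping ranges, and *Il33* followed at 1006. *Il1rn* (352), *Il1b* (310), *Il18* (261), *Il1a* (191) and *Nlrp6* (114) formed a run in which each range overlapped the next. *Nlrp6* moved from the last place to above *Pycard* (45.5) and *Nlrp3* (31.4), without overlap with *Pycard*. Exon lengths are unions over all annotated transcripts, so levels of genes with long, little-used exons are understated.

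**Figure D3:**
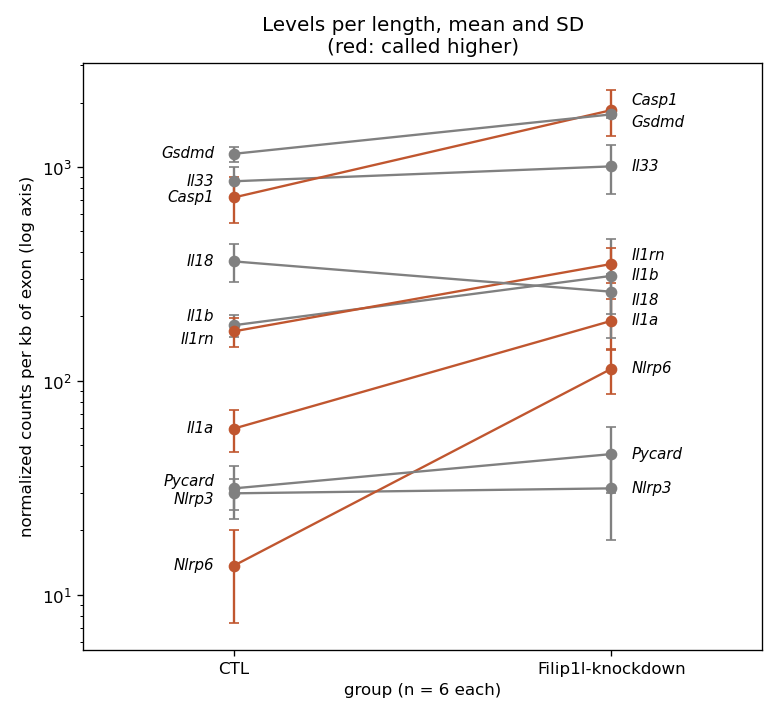
Mean level per kilobase of exon (log axis) with SD in CTL and *Filip1l*-knockdown tumors, n = 6 each, 1 line a gene, with the 4 genes called higher in red. *Nlrp6* climbs from 13.7 to 114 normalized counts per kilobase and passes *Pycard* and *Nlrp3*, and *Casp1* climbs from 721 to 1842 and reaches *Gsdmd*.

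Of other genes of the pathway, a list of 55 was examined, of which 43 were listed; *Il36a*, *Il36b*, *Il36g*, *Il1f10* and *Il36rn*, the remaining ligands and antagonists, were not. Of the 43, 6 were called higher and 1 lower, and by adjusted p alone 20 were higher, 6 lower and 17 neither. Over all genes the shares were 6.2% and 3.97% called and 21.1% and 20.7% by adjusted p, so the 1 called lower and the 6 lower by adjusted p are no more than all genes give. Their median log2 fold change was 0.18. Of 8 receptors, coreceptors and decoys, 4 fell and 1 rose, with a median log2 fold change of -0.51. The signaling receptor *Il1r1* was at 1134 to 1314 normalized counts in CTL tumors and 562.2 to 939 in knockdown tumors, with no overlap (log2 fold change -0.81 ± 0.11; limma adjusted p = 5.73e-05). *Sigirr*, an inhibitory receptor of the family, also fell without overlap, from 1491 to 2097 in CTL to 1008 to 1201 in knockdown tumors (log2 fold change -0.65 ± 0.082; adjusted p = 2.67e-05).

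*Il18r1*, the ligand-binding chain of the IL-18 receptor, was the 1 gene of the 43 called lower, from 656 ± 118 to 327 ± 177 normalized counts (SD, n = 6; log2 fold change -1.11 ± 0.24; limma adjusted p = 0.00176). At 682, the value of knockdown replicate 1 was within the CTL range; without that tumor the log2 fold change was -1.35, and without knockdown replicate 3 it was -0.99. *Il18rap*, the second chain, did not pass (log2 fold change 0.088; adjusted p = 0.539), nor did the IL-1 coreceptor *Il1rap* (0.39; adjusted p = 0.116) or the IL-33 receptor *Il1rl1* (-0.37; adjusted p = 0.255). *Il1r2*, a decoy receptor for IL-1, passed narrowly (log2 fold change 0.51; adjusted p = 0.0449) and did not pass when any of 8 tumors was left out (CTL replicates 1, 2, 5 and 6, knockdown replicates 1, 2, 3 and 5), with values from 0.37 to 0.59 over all 12. With all tumors it also missed the test under 7 of 12 alternatives, among them edgeR (adjusted p = 0.0541), pairing by replicate number (0.0653) and removal of GC content and length trends (log2 fold change 0.28, adjusted p = 0.239). In knockdown replicate 1, 7 of the 8 receptor genes had the highest value of their group. So did 11 of 14 macrophage and monocyte markers, 8 of 8 fibroblast markers and 6 of 6 endothelial markers. The count was 17 for the 43 pathway genes together, 3 for 11 neutrophil markers and 1 for 8 epithelial markers. The share over all genes is not given here.

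Beyond the 10 genes, other sensors also were higher. Of 15 listed sensors and regulators, 5 were called higher and 0 lower, with a median log2 fold change of 0.59. *Naip1*, *Naip5* and *Naip6*, which encode receptors for bacterial flagellin and secretion-system proteins, rose by 5.14 ± 0.26, 2.17 ± 0.21 and 1.90 ± 0.17 on the log2 scale (SE; limma adjusted p = 1.42e-08, 2.16e-06 and 1.31e-06). *Naip1* went from 18.8 ± 7.43 to 683 ± 205 normalized counts (SD, n = 6). The *Naip* genes are near-identical neighbors on chromosome 13, so how reads were split among them is uncertain. The other 2 called, named after their values were seen, were the DNA sensor *Aim2* (log2 fold change 1.86) and *Nlrp10* (1.78). *Nlrc4*, the partner of the NAIP proteins, rose by 0.50 on the log2 scale (adjusted p = 0.000754).

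Of 13 genes of receptor signaling, from *Myd88* to *Ube2n*, 0 were called; 5 rose by at most 0.41 on the log2 scale and *Irak3*, an inhibitory kinase, fell by 0.41. Of 6 other caspases, gasdermins and release genes, *Serpinb1a* was called higher (log2 fold change 1.98 ± 0.16; limma adjusted p = 5.6e-07), with 1790 ± 333 and 7144 ± 1710 normalized counts (SD, n = 6); the protein family it belongs to inhibits serine and inflammatory proteases. *Casp4*, the mouse caspase-11 that senses lipopolysaccharide, rose by 0.74 on the log2 scale, *Casp8* by 0.41 and the membrane-rupture gene *Ninj1* by 0.35. These 3 passed the test without reaching 2-fold.

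Of 30 genes commonly induced by IL-1 in many cell types, largely through NF-κB, 7 were called higher and 2 lower, and by adjusted p alone 16 were higher, 3 lower and 11 neither, with a median log2 fold change of 0.30. Against the 6.2% and 3.97% of all genes called, and 21.1% and 20.7% by adjusted p, the lower counts are near or below the background. *Nos2*, inducible nitric oxide synthase, rose by 2.78 ± 0.23 and the chemokine gene *Cxcl5* by 2.41 ± 0.12 on the log2 scale (SE; limma adjusted p = 6.43e-07 and 9.31e-09). *Lcn2*, the iron-sequestering lipocalin, rose by 1.56 ± 0.22 on the same scale (adjusted p = 6.7e-05). The 2 called lower were *Csf3* and *Ptgs2*: *Csf3*, granulocyte colony-stimulating factor, changed by -1.55 ± 0.42 on the log2 scale (adjusted p = 0.00904) and *Ptgs2*, cyclooxygenase-2, by -1.03 ± 0.31 (adjusted p = 0.0155). *Csf3* was scarce, at 21.3 ± 10.1 and 7.27 ± 4.67 normalized counts (SD, n = 6), and with a pseudocount of 8 its log2 fold change was -0.94 and it was not called. *Ptgs2* was less than 2-fold lower without CTL replicate 1, 2 or 5 or knockdown replicate 4 or 6 (-0.99 to -0.87). *Il6* (log2 fold change 0.60; adjusted p = 0.236) and *Cxcl1* (-0.12; adjusted p = 0.578) did not pass. With GC content and length trends removed 5 were called higher and 1 lower. Genes on this list are also induced by other signals.

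**Figure D4:**
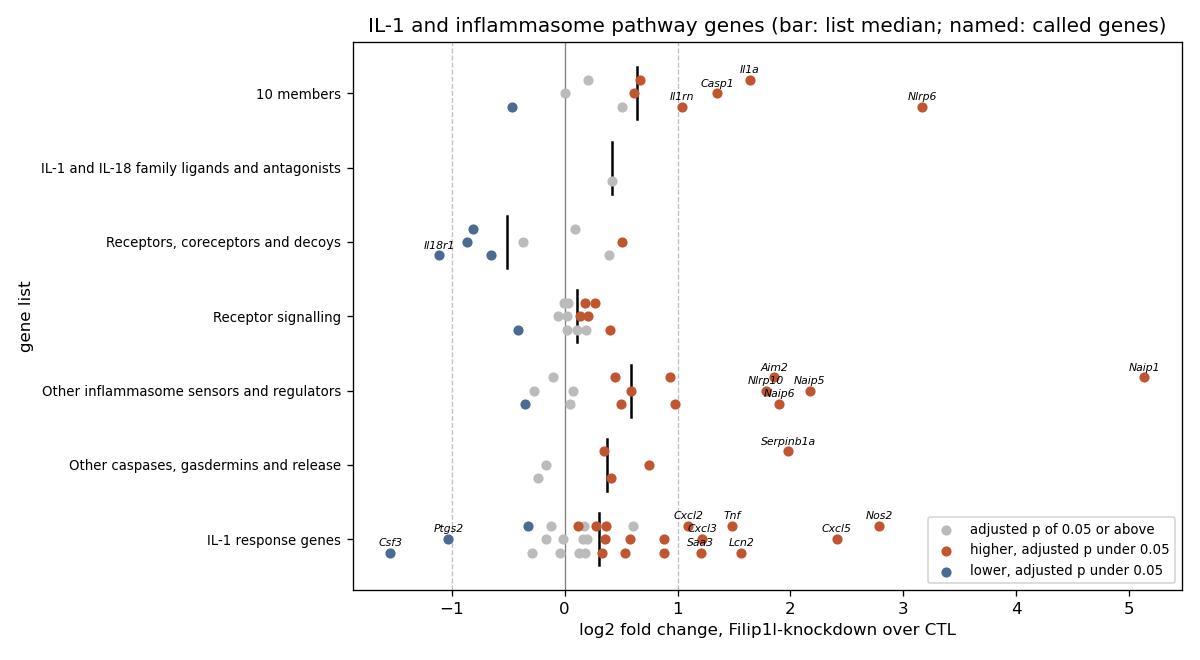
Log2 fold change of the 10 genes and of the genes on 6 lists, *Filip1l*-knockdown over CTL, 1 point a gene, in red where higher and blue where lower at an adjusted p under 0.05, with list medians as bars and called genes named. The receptor list has a median of -0.51, and sensors reach 5.14 at *Naip1*.

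Genes of the set did not vary as 1 block among tumors of the same group. With group means removed, r over the 12 tumors was 0.84 for *Nlrp3* with *Pycard*, 0.78 for *Il18* with *Casp1*, 0.77 for *Il1a* with *Il1rn* and 0.73 for *Nlrp6* with *Casp1*, and -0.60 for *Il18* with *Il33*. The value of 0.75 for *Il1b* with *Nlrp3* became 0.084 without knockdown replicate 1. Each tumor is 1 library shared by all genes, and these correlations describe the 12 tumors only.

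By the same measure, over the 12887 genes whose mean reached 50 normalized counts, the genes most like *Nlrp6* were *Ppp1r14d* (r = 0.97) and *Naip5* (r = 0.95). Closest to *Casp1* were *Fbxo8* (0.98) and *Epsti1* (0.95), to *Il18* were *Dusp23* (0.98) and *Bcat2* (0.98), and to *Gsdmd* were *Emc8* (0.92) and *Elmod3* (0.90). *Il1a* was most like *Grsf1* (0.95) and *Nampt* (0.93), *Il1b* most like *Gm49339* (0.95) and *Clec4n* (0.93), *Il1rn* most like *Cpq* (0.89) and *Fth1* (0.87), and *Il33* most like *Cdr2* (0.91) and *Lpar1* (0.90). For *Nlrp3* they were *Unc93b1* (0.99) and *Cxcl12* (0.97), and for *Pycard* *Gng2* (0.94) and *Lpxn* (0.92). For both of the last pairs, and for the pair of *Il1b*, knockdown replicate 1 was the highest knockdown tumor, as it was for the gene itself. Each pair was picked as the highest of 12887 correlations over 12 tumors. How high such top values run by chance was not tested.

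Markers of cell types were set beside the genes because several of the 10 are made by leukocytes. Of 11 listed neutrophil markers, 8 were called higher. The summed level of the 11 was 1410 to 2817 normalized counts in CTL and 3038 to 4755 in knockdown tumors. Most of that sum was *Mxd1* (739 ± 119 and 1998 ± 523, SD, n = 6) and *Ltf* (795 ± 449 and 666 ± 194), so it says little about the other markers. The highest of the others in knockdown tumors, *S100a9*, was at 101 ± 18.3 and 375 ± 83.9. Neutrophils are a known source of IL-1β and of IL-1 receptor antagonist. Of 14 macrophage and monocyte markers, 0 were called and 2 passed as higher, and of 8 dendritic cell and 8 T cell markers 0 passed. Of 8 epithelial markers 6 were called higher. The part of these cells in the results for *Il1a*, *Il1rn*, *Nlrp6* and *Casp1* was not tested.

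Within the groups, 60 relations between a gene of the set and the mean log2 level of neutrophil, macrophage or epithelial markers were computed, and 0 had an adjusted p under 0.05 (exact permutation, 11 under 0.05 before adjustment). In the 6 knockdown tumors, *Il1rn* followed the neutrophil markers at r = 0.95 (exact permutation p = 0.00417, adjusted 0.0625) and rho = 0.94 (exact permutation p = 0.0167, adjusted 0.25), with r = 0.997 without the 2 tumors farthest from the median. In the 6 CTL tumors that r was 0.46 (exact permutation p = 0.353). The 2 measures of neutrophil markers rank the knockdown tumors differently. By the mean log2 level knockdown replicate 1 was the highest (7.38), whereas its summed level (3125) was near the lowest (3038). *Ngp*, which has equal weight in the mean, ranged from 0 to 101 in knockdown tumors and was highest in that tumor. Replicate 1 was among the 2 tumors left out above, and the relation to the summed level was not tested. In the knockdown tumors, *Nlrp3* followed the macrophage markers at r = 0.98 (exact permutation p = 0.00278, adjusted 0.0556) and rho = 0.94 (exact permutation p = 0.0167, adjusted 0.25), with r = 0.88 without the 2 tumors farthest from the median. *Pycard* gave r = 0.98 and rho = 0.94 with the same p-values, and r = 0.997 over the 4 remaining tumors. *Il1b* gave r = 0.93 (exact permutation p = 0.0125, adjusted 0.15) and rho = 0.83 (exact permutation p = 0.0583, adjusted 0.35), but r = 0.32 without the 2 farthest tumors, so that relation rests on them. In the same tumors *Il18* followed the epithelial markers at r = 0.94 (exact permutation p = 0.00278, adjusted 0.0556), and 0.82 without the 2 farthest. Its rho was 0.94 (exact permutation p = 0.0167, adjusted 0.25). In the 6 CTL tumors *Il18* gave r = 0.66 with the epithelial markers. With the macrophage markers r in CTL tumors was 0.90 for *Nlrp3*, 0.74 for *Pycard* and -0.43 for *Il1b*. Without the 2 farthest CTL tumors these 3 values became 0.37, -0.82 and 0.96.

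**Figure D5:**
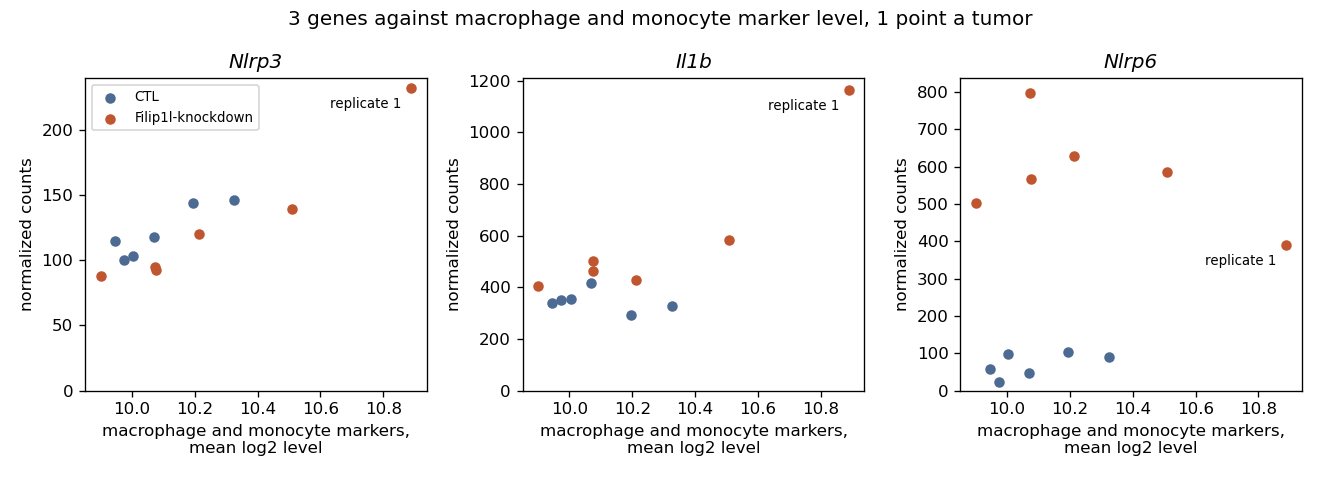
Normalized counts of *Nlrp3*, *Il1b* and *Nlrp6* against the mean log2 level of 14 macrophage and monocyte markers, 1 point a tumor. *Nlrp3* climbs with the marker level to 232 normalized counts in knockdown replicate 1, *Il1b* reaches 1165 in that tumor, and for *Nlrp6* the groups stay apart at all marker levels while replicate 1 is the lowest knockdown tumor at 391.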

How the data were processed

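RNA of 12 subcutaneous mTC11 tumors, 6 CTL and 6 *Filip1l*-knockdown, was sequenced for the authors by a service laboratory as paired reads from poly(A)-selected libraries. Per the labels and the paper, trimming used Trimmomatic 0.36, alignment STAR 2.5.2b, and reads were counted per gene with featureCounts (Subread 1.5.2); the submitters' processing notes name mm10, and whether counting used strand is not given in the sources used here. Counts were divided by DESeq2 size factors before deposit, so the deposited values are a normalized signal, not corrected for gene length. Depth was 17834745 to 29502069 reads on listed genes in CTL and 25460564 to 32419578 in knockdown tumors.

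All values (100%) were whole multiples of 1 step per tumor within 0.01, so whole reads were recovered; a floor of 3 reads corresponds to 2.59 to 4.48 normalized counts and covers counting error only. Labels gave each of the 12 tumors its group. Symbols, positions and exon lengths came from GENCODE vM21 on GRCm38, the build of mm10, where 15661 of 15687 identifiers were found. Promoter sequences came from RefSeq on GRCm38.p6.

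The comparison of groups used limma 3.58.1 (R 4.3.3) on log2(normalized count + 1), so that fold changes of low genes are understated, with the variance trended on the mean level and p-values adjusted by Benjamini-Hochberg over 15687 genes; a filter at a mean of 5 removed 0 genes. Calls needed an adjusted p below 0.05 with a log2 fold change beyond 1 in size. Permutation tests were exact and two-sided, over every arrangement of 6 against 6. Alternative settings were a pseudocount of 0.5 or 8, no filter or one at 20, 75th percentile and same total scaling, limma without trend, the replicate number as a block, removal of chromosome medians or of GC content and length trends, and leaving out each tumor; edgeR 4.0.16 (quasi-likelihood) and DESeq2 1.42.0 on the recovered reads, and leaving out tumors from the ratios, were added after seeing the data. The steps were tested on simulated data.

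The 10 genes, the pathway, response and marker lists and the tests were chosen with earlier results of these data known. Named are the 10 genes, for each pathway list up to 3 called genes in each direction with the largest change, the receptors of the 10, and the 2 genes most like each. Genes added after their values were seen were *Aim2*, *Nlrp10*, *Nlrc4*, *Casp4*, *Casp8*, *Ninj1*, *Irak3*, *Il6*, *Cxcl1*, *Tnf*, *Cxcl3*, *Saa3* and *Cxcl2*. Same-numbered tumors did not deviate together (correlations from -0.269 to 0.0990), so no pairing was used. Python 3.11.15 and matplotlib 3.10.9 drew the figures. Protein sequences were not used here.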

Additional observations from a re-analysis of the deposited data

Results flagged for a closer look

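Among 54 groups of 6 tumors (the 10 genes and the 17 other genes followed through the alternatives, in each group), 6 had 1 tumor that stood apart from the others, by a gap to its nearest neighbor that, as a share of the range of the group on the log2 scale, exceeded Dixon's critical value. Chance alone gives about 1 in 20 such groups. Knockdown replicate 1 accounted for 3 of them: it had 1165 normalized counts of *Il1b* (gap 0.654 of the range), 682 of *Il18r1* (0.665) and 314 of *Il1r2* (0.732). That tumor also had the highest summed macrophage, fibroblast and endothelial markers of its group, and the part of these cells in its values was not tested. CTL replicate 3 was the lowest CTL tumor for *Il33* at 1715 normalized counts (0.699) and for *Cxcl5* at 390 (0.667). CTL replicate 4 was the lowest for *Il18rap* at 1001 (0.647).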

How the results depend on the processing

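Of the 10 genes, 3 to 4 were called higher and 0 lower under every alternative; the count was 3 where the log2 fold change of *Il1rn* fell just under 1 (same total scaling, GC content and length trends removed, and 4 of the 12 fits that left out a tumor). *Il1a*, *Nlrp6*, *Casp1* and *Gsdmd* kept their direction and passed the test throughout. Of the pathway genes, 7 were called under each alternative with all tumors and 7 to 9 when a tumor was left out, and of the response genes 6 to 9. The sign of *Nlrp3*, which never passed, changed under 4 alternatives with all tumors and without any of 6 tumors (-0.19 to 0.091). *Il1b* missed the test with GC content and length trends removed (0.46), and *Il33* passed with chromosome medians removed (0.57); the cause was not tested. *Il18* fell by 0.71 on the log2 scale with GC content and length trends removed. *Il18bp* passed with DESeq2 (0.45) and without CTL replicate 3 (0.48), knockdown replicate 4 (0.54) or knockdown replicate 5 (0.51).

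Fitted with the replicate number as a block, 4 of the 10 genes, 7 pathway genes and 9 response genes were called, as without it, and the adjusted p of *Il1r2* went from 0.0449 to 0.0653. *Csf3* has no value where genes under a mean of 20 were filtered out. Depth did not limit the 10 genes, whose lowest value, 22.7 normalized counts of *Nlrp6*, lay above the floor of 3 reads. All tumors come from 1 cell line, and p-values measure the spread between these 12 tumors. They do not separate the knockdown from other differences between the control and knockdown cells. The median log2 fold change was 0.39 on chromosome 14, -0.35 on chromosome 19 and -0.19 on chromosome 8, with the same sign in every knockdown tumor.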

Other observations

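Genes near those of the set were looked at by position. The 22 listed genes within 1 Mb of *Il1a* had a median log2 fold change of -0.021 with 0 called higher and 2 lower, the 29 around *Il1rn* one of 0.069 with 6 higher and 0 lower, and the 7 around *Casp1* one of -0.012 with 0 higher and 1 lower. Among the 60 around *Gsdmd* the median was 0.028, with 4 higher and 2 lower; over all genes 6.2% were called higher and 3.97% lower. Skeletal muscle markers were higher too, with 5 of 6 called, and summed to between 2051 and 11229 normalized counts in CTL tumors and between 4688 and 80175 in knockdown tumors, with knockdown replicate 3 at the top. Of the 7 mast cell markers listed, *Mcpt4* was called higher, at 332 ± 178 and 2192 ± 1380 normalized counts (SD, n = 6); the other 6 did not pass, 5 of them with values below 0, and the median log2 fold change of the list was -0.16.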
